A study of Mus musculus with 9 samples.

Results

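Cholesterol and fatty acids are both built from acetyl-CoA, and the enzymes that build them share a set of transcriptional regulators. Described here are 36 genes of these routes in mouse germinal center B cells, in 9 RNA libraries. They are 18 enzymes that act on the way from acetyl-CoA to cholesterol, 13 genes that make, desaturate, elongate or activate fatty acids, and 5 genes that regulate the routes or carry sterols. The genes were taken by symbol from a list of names, and 36 of 36 were found among the 23234 distinct symbols of the gene tables. The germinal center is the structure in which B cells proliferate and hypermutate their receptors in a dark zone (DZ) and compete for antigen and T cell help in a light zone (LZ).

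The first of the 3 groups, called Foxo1-deficient here, was germinal center B cells that were Foxo1(f/f), with the allotype CD45.1/2, and sorted with no zone gate. The DZ group (CD86 low, CXCR4 high) and the LZ group (CD86 high, CXCR4 low) were both Foxo1(+/+), with the allotype CD45.1/1. Each group had 3 libraries, each made from about 10000 cells of the spleen. Both kinds of B cell were transferred together into C57BL/6 hosts, which were immunized on day 0 with NP-CGG (the hapten NP on a carrier protein, in alum) and fed tamoxifen on each day from day 7 to day 9. The sort, on day 12, took CD45.1+ CD45.2- cells that bound NP, stained for B220 and GL7 and lacked CD38. All 3 groups carried 1 knock-in copy of B1-8hi, an antibody heavy chain that binds NP, and 1 knock-in copy of ERT2cre, a recombinase that tamoxifen activates, and all were exposed to tamoxifen. Genotype, CD45 allotype and zone gate changed together between Foxo1-deficient cells and either wild-type group, so their parts cannot be told apart. This gate would leave out CD45.1/2 cells, a conflict in the labels that was not settled here. Since no label ties a replicate number to an animal, p-values cover only the spread between these libraries, some of which may be technical.

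Levels are FPKM, which gives fragments relative to transcript length and library size, and can be compared between genes because they are per length. Foxo1, the targeted gene, had 3.01, 1.79 and 0.808 FPKM in Foxo1-deficient libraries, 24.5, 19.5 and 19.1 FPKM in DZ libraries and 14.8, 18.7 and 22.1 FPKM in LZ libraries (log2 change -2.82 against LZ, adjusted p = 0.00113, and -3.01 against DZ, adjusted p = 0.000542, by limma). The depth implied by the confidence intervals of the tables was 1780000 to 2480000 fragments a library. A total of 9 germinal center B cell markers (Bcl6, Fas, Pax5 and others) summed to 1970 to 2350 FPKM in Foxo1-deficient, 1510 to 1820 FPKM in DZ and 1920 to 2150 FPKM in LZ libraries. Summed markers of myeloid cells (11 genes) came to 171 to 324 FPKM in Foxo1-deficient libraries, against 5.25 to 8.3 FPKM in DZ and 6.2 to 15.9 FPKM in LZ libraries, with Elane and Mpo at 0 in every library. Summed markers of erythroid cells (8 genes) came to 275 to 829 FPKM in Foxo1-deficient libraries, against 13.6 to 25.4 FPKM in DZ and 21.9 to 46.3 FPKM in LZ libraries. Plasma cell markers (5 genes) came to 233 to 355 FPKM in Foxo1-deficient, 189 to 289 FPKM in DZ and 124 to 151 FPKM in LZ libraries, most of it from Igj, while Irf4 was at a mean of 6.86 FPKM in Foxo1-deficient, 3.22 FPKM in DZ and 9.74 FPKM in LZ libraries. T cell markers (6 genes) came to 14.7 to 24.8 FPKM in Foxo1-deficient, 11.4 to 20.1 FPKM in DZ and 26.2 to 28.4 FPKM in LZ libraries. Most of it came from Lck, with Cd3e, Cd3g and Cd4 at 0 throughout and Cd3d and Cd8a at no more than 1.16 FPKM. Wild-type DZ replicate 3 stood lower than the others across all genes, with a median deviation of -0.24 on the log2(FPKM + 1) scale. Foxo1-deficient replicate 3 had the lowest correlations with other libraries across genes, with r between 0.8286 and 0.8788. Class medians and the calls of named genes are given with and without these libraries. Most other single-gene values are given only with them.

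Cells sense the sterol content of the endoplasmic reticulum membrane. When sterols are low, SCAP (gene Scap) escorts the SREBP transcription factors, encoded by Srebf1 and Srebf2, to the Golgi, where proteases release their active part. This part enters the nucleus and raises transcription of the synthesis genes, with SREBP-2 acting mainly on cholesterol genes and SREBP-1c mainly on fatty acid genes. When sterols are plentiful, INSIG1 (gene Insig1) holds SCAP back. SREBPs are weak activators on their own and act at promoters together with NF-Y, which binds CCAAT, and Sp1. Dividing lymphocytes need both products for new membrane.

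Promoters of 4 of the genes are shown because the classes share this regulatory machinery. RefSeq windows, on GRCm38.p6, were present for 29 of the 36 genes, and each printed stretch is the 180 bases before the annotated start site, read 5′ to 3′ on the strand of the gene. Capitals mark CCAAT on either strand (CCAAT or ATTGG) and, in Hmgcs1, the sterol response element core TCACNCCAC. Hmgcs1 makes HMG-CoA for the mevalonate route and lies at chr13:119690171-119690350 on the plus strand. Ebp, a sterol isomerase, lies at chrX:8193513-8193692 on the minus strand, and Sc4mol (Msmo1 in RefSeq), a sterol demethylase, at chr8:64733579-64733758 on the minus strand. Fasn, fatty acid synthase, at chr11:120824548-120824727 on the minus strand, is the fatty acid gene set beside them.
Hmgcs1: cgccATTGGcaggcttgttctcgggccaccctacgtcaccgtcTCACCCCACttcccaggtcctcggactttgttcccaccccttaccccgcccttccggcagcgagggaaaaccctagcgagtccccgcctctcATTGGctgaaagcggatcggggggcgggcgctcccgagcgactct
Ebp: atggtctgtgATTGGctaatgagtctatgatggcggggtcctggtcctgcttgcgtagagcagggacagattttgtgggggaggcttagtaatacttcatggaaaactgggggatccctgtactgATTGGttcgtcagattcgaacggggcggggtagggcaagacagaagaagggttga
Sc4mol: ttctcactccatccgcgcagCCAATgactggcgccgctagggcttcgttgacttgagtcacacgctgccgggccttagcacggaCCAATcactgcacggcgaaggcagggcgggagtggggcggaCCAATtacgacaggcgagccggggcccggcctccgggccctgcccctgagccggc
Fasn: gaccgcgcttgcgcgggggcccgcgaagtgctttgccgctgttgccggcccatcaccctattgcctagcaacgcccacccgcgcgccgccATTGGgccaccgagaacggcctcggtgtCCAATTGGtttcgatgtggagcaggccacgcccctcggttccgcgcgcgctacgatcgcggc
Within these stretches Hmgcs1 held 2 CCAAT matches, Ebp 2, Sc4mol 3 and Fasn 3. A pair of the Fasn matches overlaps, 1 on each strand, in CCAATTGG.

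Windows of 250 bases before to 50 bases after the start site were searched on both strands. CCAAT was found for 14 of the 15 sterol enzymes with a window, all but Acat2, which is 14 of 18 windows or 77.8%. Of the fatty acid windows, 6 of 11 held it (54.5%), and of the regulation and transport windows 4 of 7 (57.1%). Among all 32851 windows the share was 37.4%, and among the 9008 windows of genes tested below it was 39.2%. The core TCACNCCAC was found in 1 sterol window, that of Hmgcs1, which is 5.56% of sterol windows. It was in 1.24% of all windows and 1.14% of those of tested genes. The E-box CACGTG was found in 3 of 18 sterol windows (16.7%), 1 of 11 fatty acid windows (9.09%) and 3 of 7 regulation and transport windows (42.9%). Its share was 7.15% of all windows and 10.5% of those of tested genes. The Foxo motif GTAAACA was found in 1 of 11 fatty acid windows (9.09%), that of Elovl6. It was in 0 of 18 sterol and 0 of 7 regulation and transport windows, against 3.65% of all windows and 2.54% of those of tested genes. These are matches of letters and were not tested.

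The 36 genes covered a wide range of levels. By the median over the 9 libraries, Scd1, the stearoyl-CoA desaturase that makes monounsaturated fatty acids, was highest at 66.9 FPKM (range 42.8 to 83.3 FPKM). Srebf2 followed at 50.5 FPKM (37.8 to 59.9 FPKM). Below it came Fdps, which makes farnesyl diphosphate, at 31.6 FPKM, Acly, which makes cytosolic acetyl-CoA from citrate, at 29.6 FPKM, and Acsl5, which activates fatty acids to acyl-CoA, at 28.0 FPKM. The ranges of these 3 genes overlapped, from 20.8 to 40.9 FPKM in all. The lowest were Mvk, mevalonate kinase, at a median of 2.85 FPKM, Tm7sf2, a sterol C14 reductase, at 1.66 FPKM, and Elovl6, an elongase of long-chain fatty acids, at 0.82 FPKM. Mvk was listed at 0 in Foxo1-deficient replicate 3 and at 0.596 to 6.45 FPKM elsewhere. The deviation of every member in every library is drawn in a map of all 36 genes.

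**Figure D1:**
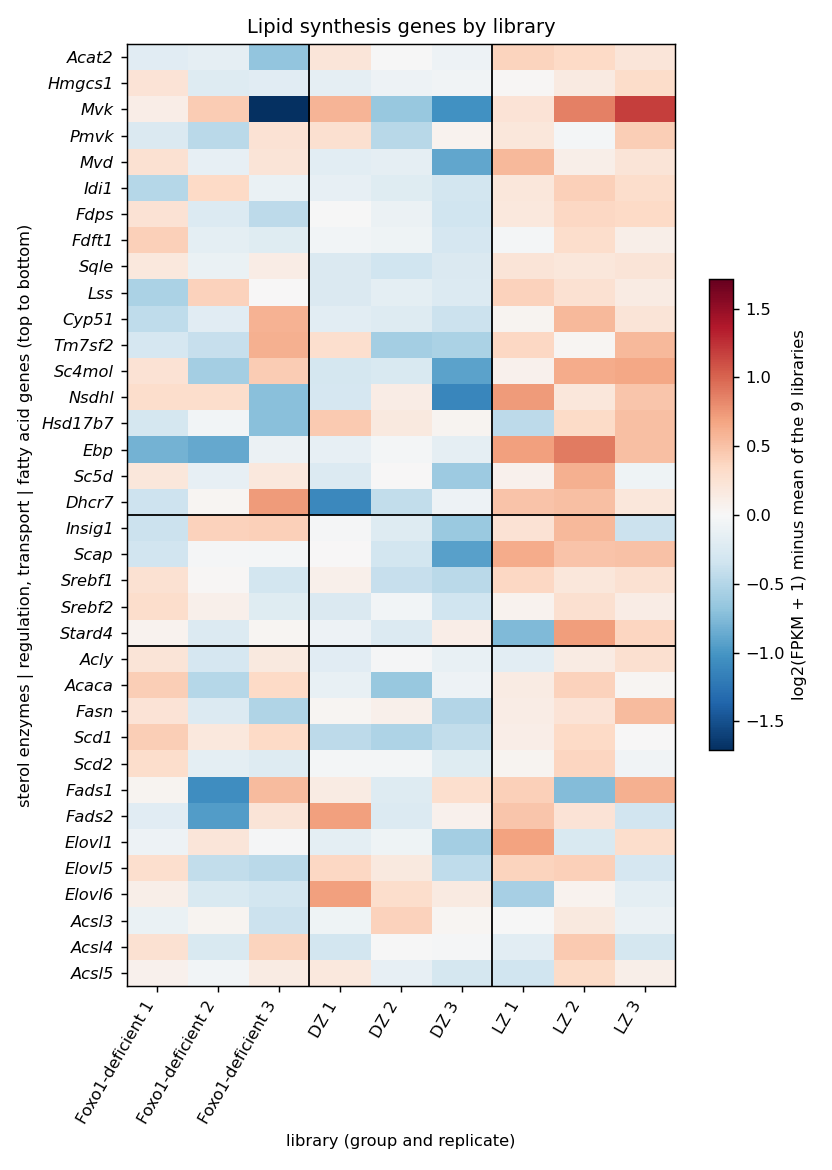
Deviation of each of the 36 genes in each library from its own mean over the 9 libraries, on the log2(FPKM + 1) scale (colour), with genes in rows by class and libraries in columns by group. In 16 of the 17 tested sterol enzymes the DZ mean lay below the LZ mean, with a median log2 change of -0.52. The same held for 10 of the 12 tested fatty acid genes, with a smaller median change of -0.16.

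Foxo1-deficient libraries held 212, 197 and 219 FPKM of the 18 sterol enzymes summed, DZ libraries 199, 188 and 166 FPKM and LZ libraries 252, 286 and 274 FPKM. All LZ libraries thus lay above all libraries of the other groups. The 13 fatty acid genes summed to 235, 187 and 215 FPKM in Foxo1-deficient libraries, 183, 175 and 160 FPKM in DZ libraries and 209, 236 and 212 FPKM in LZ libraries. Here too all DZ libraries lay below all LZ libraries, and below all Foxo1-deficient libraries, while Foxo1-deficient and LZ libraries overlapped. The largest part of these sums was Scd1, at 83.3, 70.0 and 78.5 FPKM in Foxo1-deficient and 45.0, 42.8 and 45.9 FPKM in DZ libraries. Among the 12 tested fatty acid genes, only 1, Scd1, had every Foxo1-deficient library above every DZ library (17.3% of all genes). The 5 regulation and transport genes summed to 99.7, 97.0 and 86.2 FPKM in Foxo1-deficient, 82.5, 80.5 and 67.7 FPKM in DZ and 99.5, 119 and 99.6 FPKM in LZ libraries. Sums over all genes tested also lay lower in every DZ library (281924, 277831 and 237977 FPKM) than in every LZ library (308541, 292393 and 291360 FPKM). In Foxo1-deficient libraries they were 299383, 276971 and 279641 FPKM. In bulk samples, fewer cells of a type and less RNA per cell cannot be told apart.

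A second view gives each gene the same weight. It takes the median, over the genes of a class, of each gene's deviation from its own mean over the libraries. For the sterol enzymes the median deviation was -0.19, -0.14 and 0.00 in Foxo1-deficient libraries, -0.14, -0.17 and -0.32 in DZ libraries and 0.23, 0.33 and 0.30 in LZ libraries (log2 scale). For the fatty acid genes it was 0.22, -0.25 and 0.16 in Foxo1-deficient libraries, -0.05, -0.06 and -0.17 in DZ libraries and 0.12, 0.29 and 0.02 in LZ libraries. For the regulation and transport genes it was 0.06, 0.02 and -0.04 in Foxo1-deficient libraries, -0.02, -0.23 and -0.46 in DZ libraries and 0.25, 0.49 and 0.27 in LZ libraries. Over all genes tested it was 0.12, 0.05 and 0.00 in Foxo1-deficient libraries. In DZ libraries it was 0.02, -0.02 and -0.24, and in LZ libraries 0.02, 0.17 and 0.03. In all 3 classes every LZ library lay above every DZ library, with the all-gene lean not taken out. The sterol and regulation medians of LZ libraries also lay above those of Foxo1-deficient libraries, and the fatty acid medians of Foxo1-deficient libraries overlapped both other groups.

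**Figure D2:**
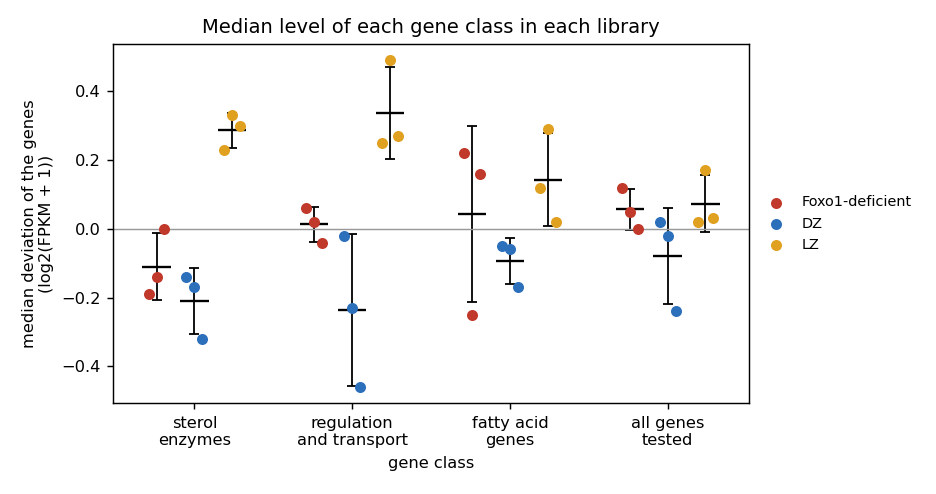
Median deviation of each gene class in each library (points, log2(FPKM + 1) scale, from each gene's mean over the 9 libraries), by class along the x axis with Foxo1-deficient, DZ and LZ libraries side by side and all genes tested at the right. The sterol enzymes of LZ libraries sit at 0.23 to 0.33, above all DZ (-0.32 to -0.14) and Foxo1-deficient (-0.19 to 0.00) libraries.

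The first comparison, DZ against LZ, asks how wild-type cells of the zones differ. Most sterol enzymes had lower means in DZ than in LZ, though none passed the test. Of the 17 tested, 16 had a lower mean in DZ, with a median log2 change of -0.52 and a range of -1.13 to 0.08. Of the 12 fatty acid genes tested, 10 had a lower mean in DZ. Their median was -0.16, close to the -0.15 of all 10004 genes tested. Changes are DZ minus LZ on the log2(FPKM + 1) scale, from limma, and a gene was called at an adjusted p under 0.05. By that rule 0 of 17 sterol enzymes, 0 of 12 fatty acid genes and 0 of 5 regulation and transport genes were called, where 1.38% of all genes were called lower in DZ and 0.56% higher (1.94% in all). At an unadjusted p under 0.05, 7 sterol enzymes, 1 fatty acid gene and 2 regulation and transport genes were lower in DZ. None of the members was higher, where 11.7% of all genes were lower and 3.72% higher. In 12 of the 17 sterol enzymes, every DZ library lay below every LZ library, against 17.1% of all genes. In 0 every one lay above, against 5.16% of all genes. A variant, called limma-voom here, fitted log2(FPKM + 1) in limma with voom weights from implied fragments. By it, 0 sterol enzymes, 1 fatty acid gene (Scd1) and 1 regulation gene (Scap) were called lower.

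Genes as a whole leaned lower in DZ, where 65.0% of those tested had a change below 0. Relative to the all-gene median the sterol median was -0.38 and the fatty acid median -0.02. Of the sterol enzymes 16 of 17 lay below the all-gene median, against 6 of 12 fatty acid genes and 5 of 5 regulation and transport genes. Without DZ replicate 3 the sterol median was -0.47, the fatty acid median -0.16 and the regulation and transport median, -0.44 with all libraries, -0.30. The fatty acid median was -0.27 without LZ replicate 1, -0.28 without LZ replicate 3 and -0.25 without DZ replicate 1. Centring each library on its median gave a sterol median of -0.33 and a fatty acid median of 0.02. The share of called genes that were higher in DZ was 28.9%, and it was 56.8% after centring and 42.8% after quantile normalization.

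Among the enzymes of the mevalonate route, which runs from acetyl-CoA to farnesyl diphosphate, the median change of the 6 tested was -0.48. Idi1, which makes the isoprene donor of the route, had 24.7, 23.6 and 21.7 FPKM in DZ libraries, against 31.4, 36.6 and 33.9 FPKM in LZ libraries (log2 change -0.52, adjusted p = 0.268 by limma). Fdps had 31.6, 29.5 and 24.9 FPKM in DZ libraries, against 35.9, 40.9 and 40.2 FPKM in LZ libraries (log2 change -0.44, adjusted p = 0.329). Mvd, which decarboxylates mevalonate diphosphate, had 4.31, 4.42 and 2.23 FPKM in DZ libraries, against 7.81, 5.42 and 6.02 FPKM in LZ libraries (log2 change -0.70, adjusted p = 0.28). In all 3 genes the libraries of the zones did not overlap. Acat2, an acetyl-CoA thiolase, also did not overlap, at 16.8, 14.4 and 13.5 FPKM in DZ and 19.1, 18.5 and 16.9 FPKM in LZ. Mvk and Pmvk, the kinases of the route, overlapped. Hmgcs1 is listed under 2 entries with equal values and was tested apart, entered once. It had 12.5, 13.2 and 13.4 FPKM in DZ libraries and 14.3, 15.7 and 17.6 FPKM in LZ libraries (log2 change -0.26, adjusted p = 0.609), with no overlap.

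The 11 enzymes from squalene to cholesterol had a median change of -0.53. The smallest unadjusted p of the sterol enzymes was that of Sc4mol, which had 15.2, 15.7 and 9.63 FPKM in DZ libraries and 20.1, 29.9 and 30.6 FPKM in LZ libraries (log2 change -0.95, SE 0.30, adjusted p = 0.161). Sqle, squalene epoxidase and a rate-limiting step of the late route, had 15.4, 14.3 and 15.3 FPKM in DZ libraries and 21.7, 21.2 and 21.7 FPKM in LZ libraries (log2 change -0.49, SE 0.17, adjusted p = 0.188). Ebp had 4.54, 4.99 and 4.51 FPKM in DZ libraries and 8.97, 10.3 and 7.73 FPKM in LZ libraries (log2 change -0.81, SE 0.28, adjusted p = 0.19). No library of one zone reached the other in these 3 genes. Dhcr7, which takes the last step to cholesterol, had 2.67, 4.91 and 6.47 FPKM in DZ libraries and 10.1, 10.3 and 8.02 FPKM in LZ libraries (log2 change -0.94, adjusted p = 0.218). Nsdhl, which acts with Sc4mol in removing the C4 methyl groups, had 5.88, 8.16 and 2.87 FPKM in DZ libraries and 12.9, 8.6 and 10.6 FPKM in LZ libraries (log2 change -0.89, adjusted p = 0.282). Hsd17b7, the keto-reductase of the same step, was the exception, with 4.43, 3.48 and 3.14 FPKM in DZ and 1.93, 4.03 and 4.72 FPKM in LZ (log2 change 0.08, adjusted p = 0.943). The remaining members, Fdft1 (squalene synthase), Lss (lanosterol synthase), Cyp51 (lanosterol demethylase), Tm7sf2 and Sc5d (a sterol desaturase), had changes between -0.59 and -0.26.

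The regulators of the routes were lower in DZ by point estimate in 5 of 5 genes, with a median of -0.44. Scap had 6.67, 5.14 and 3.01 FPKM in DZ libraries and 10.8, 9.72 and 9.80 FPKM in LZ libraries (log2 change -0.95, SE 0.27, adjusted p = 0.122, and 0.0376 with limma-voom). Srebf1 had 12.9, 9.02 and 8.57 FPKM in DZ libraries and 15.8, 14 and 14.8 FPKM in LZ libraries (log2 change -0.52, adjusted p = 0.30). Srebf2 had 40.5, 46.6 and 37.8 FPKM in DZ libraries and 50.5, 58.3 and 52.6 FPKM in LZ libraries (log2 change -0.37, adjusted p = 0.341). The zones did not overlap in these 3 genes, while they did in Insig1 (log2 change -0.44) and in Stard4, a sterol carrier (log2 change -0.18).

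In the fatty acid branch the libraries of the zones did not overlap in 3 of 12 tested genes, lower in DZ, against 17.1% of all genes. Scd1 had 45.0, 42.8 and 45.9 FPKM in DZ libraries and 66.9, 78.7 and 62.2 FPKM in LZ libraries (log2 change -0.62, SE 0.15, 95% interval -0.94 to -0.30, adjusted p = 0.0625, and 0.00956 with limma-voom). Fasn had 12.5, 13.1 and 8.37 FPKM in DZ libraries and 13.5, 14.5 and 18.2 FPKM in LZ libraries (log2 change -0.43, adjusted p = 0.487). Acaca, acetyl-CoA carboxylase, had 3.35, 2.04 and 3.49 FPKM in DZ libraries and 4.22, 5.25 and 3.88 FPKM in LZ libraries (log2 change -0.47, adjusted p = 0.551). These are the 3 genes without overlap. Elovl1, an elongase of very long chains, had 13.3, 14.2 and 9.66 FPKM in DZ and 24.8, 12.3 and 18.7 FPKM in LZ (log2 change -0.52, adjusted p = 0.387). The acyl-CoA synthetases Acsl3, Acsl4 and Acsl5 had changes of 0.10, -0.10 and -0.11, and the polyunsaturated fatty acid desaturases Fads1 and Fads2 changes of -0.02 and 0.05. Elovl6, below the minimum level for the test, had 1.82, 1.14 and 0.933 FPKM in DZ libraries and 0.176, 0.820 and 0.545 FPKM in LZ libraries. It was thus at its highest in DZ, and with no minimum level its log2 change was 0.61 (adjusted p = 0.357).

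**Figure D3:**
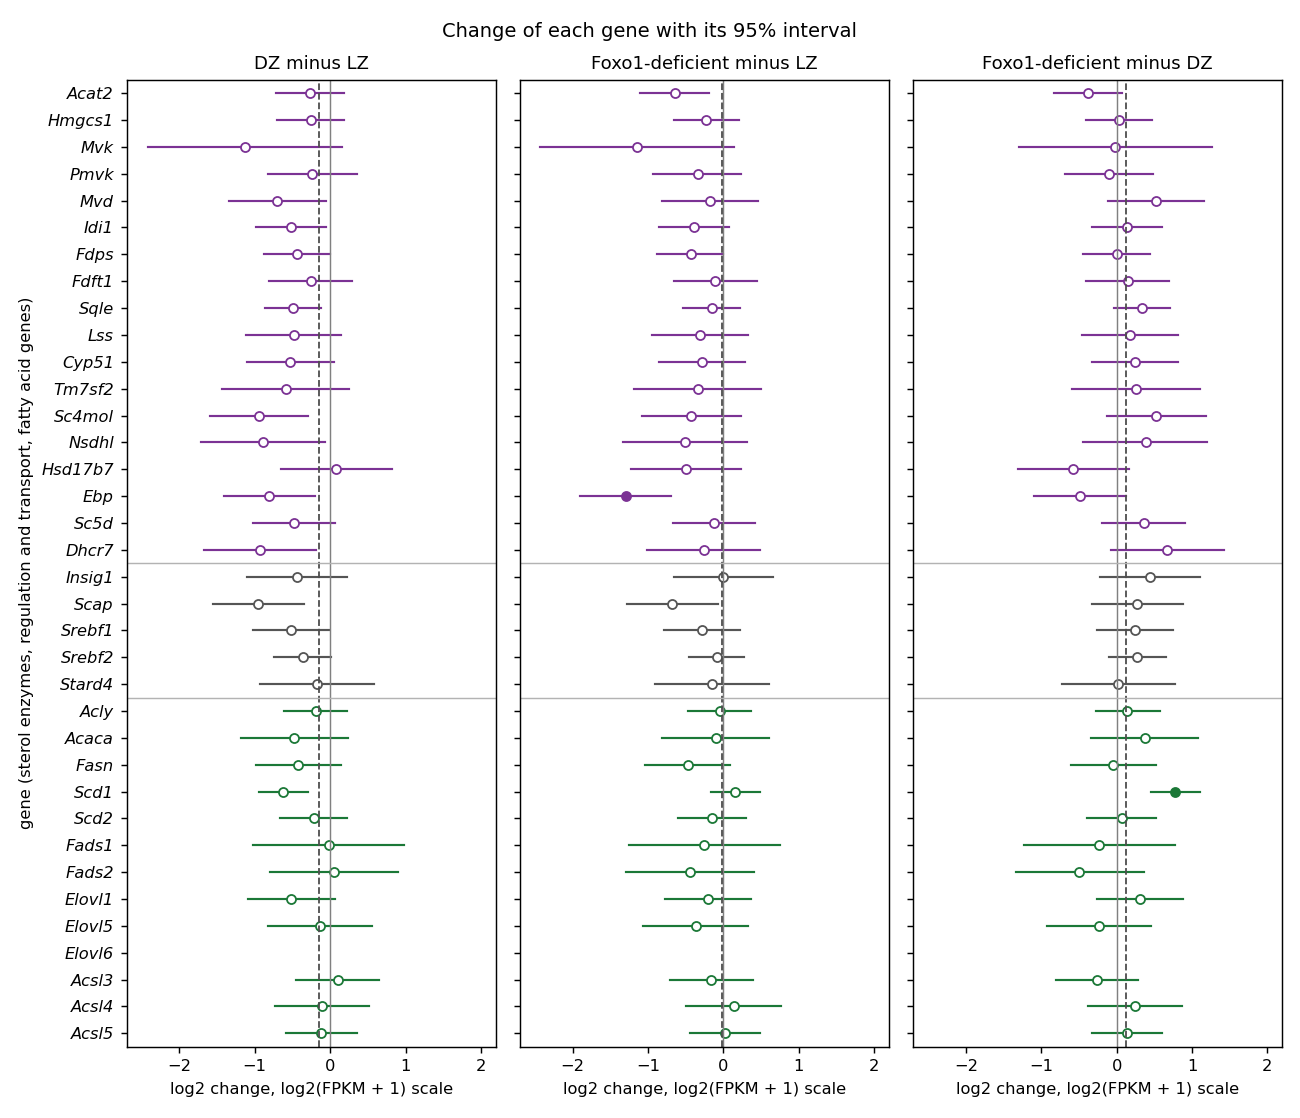
Log2 change of each tested gene (points, with 95% intervals from limma) in the 3 comparisons, by class from top to bottom, with a dashed line at the median of all genes tested, called genes filled, Hmgcs1 from its separate test and Elovl6, not tested, left blank. In DZ minus LZ the sterol enzymes have a median of -0.52 and the fatty acid genes -0.16, beside -0.15 for all genes.

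The second comparison sets Foxo1-deficient cells against LZ cells. Every one of the 17 sterol enzymes tested had a lower mean in Foxo1-deficient cells, with a median log2 change of -0.34, where the median of all genes was -0.02 and 52.0% of all genes had a change below 0. Ebp fell, and no other member was called. Of the 12 fatty acid genes tested, 9 had a change below 0. Their median was -0.16, and that of the regulation and transport genes -0.15. Called lower were 1 of 17 sterol enzymes, 0 of 12 fatty acid genes and 0 of 5 regulation and transport genes, and none was called higher. Of all genes 0.87% were called lower in Foxo1-deficient cells and 0.69% higher (1.56% in all). At an unadjusted p under 0.05, 2 sterol enzymes, 0 fatty acid genes and 1 regulation gene were lower and none of the members higher, against 7.64% of all genes lower and 5.79% higher. With limma-voom 0 sterol enzymes, 0 fatty acid genes and 0 regulation and transport genes were called. In 3 sterol enzymes (Acat2, Ebp and Sqle) every Foxo1-deficient library lay below every LZ library, which held for 9.37% of all genes, and in none of the members did every one lie above (8.12% of all genes). Without Foxo1-deficient replicate 3 the sterol median was -0.38, the fatty acid median -0.15 and the regulation and transport median -0.13. Without Foxo1-deficient replicate 2 the sterol median was -0.21 and the fatty acid median 0.00. Without LZ replicate 2 the fatty acid median was -0.06 and the regulation and transport median -0.03, and without LZ replicates 1 or 3 the regulation and transport median was -0.24 or -0.25.

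Ebp had 2.49, 2.34 and 4.68 FPKM in Foxo1-deficient libraries, 4.54, 4.99 and 4.51 FPKM in DZ libraries and 8.97, 10.3 and 7.73 FPKM in LZ libraries. It lies on mm9 at chrX:7762457-7770638. Its log2 change against LZ was -1.29 (SE 0.28, 95% interval -1.90 to -0.69, adjusted p = 0.044 by limma), with all 3 Foxo1-deficient libraries below all 3 LZ libraries. The values rest on an implied 28 to 79 fragments a library. The call was lost when any 1 library other than Foxo1-deficient replicate 3 was left out (adjusted p 0.0658 to 0.142), and it held without that replicate (log2 change -1.54, adjusted p = 0.0407). In the same comparison 7 of 9 tested myeloid markers and 4 of 4 tested erythroid markers were called higher, and their part in the lower sterol enzyme values was not tested.

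Acat2 had 12.5, 12.9 and 8.65 FPKM in Foxo1-deficient libraries, against 19.1, 18.5 and 16.9 FPKM in LZ libraries (log2 change -0.65, SE 0.21, adjusted p = 0.178). Fdps had 37.9, 26.7 and 22.9 FPKM in Foxo1-deficient libraries, against 35.9, 40.9 and 40.2 FPKM in LZ libraries (log2 change -0.44, adjusted p = 0.376). Sqle had 20.9, 17.0 and 20.1 FPKM in Foxo1-deficient libraries, against 21.7, 21.2 and 21.7 FPKM in LZ libraries (log2 change -0.15, adjusted p = 0.746). Acat2 and Sqle did not overlap, but for Sqle the gap was small. Scap had 5.05, 6.49 and 6.42 FPKM in Foxo1-deficient libraries, against 10.8, 9.72 and 9.80 FPKM in LZ libraries, with no overlap (log2 change -0.68, SE 0.27, adjusted p = 0.308). Srebf1 had 14.7, 12.3 and 9.54 FPKM in Foxo1-deficient libraries (log2 change -0.28 against LZ), and Srebf2 had 59.9, 51.3 and 41.6 FPKM (log2 change -0.09). Both overlapped LZ.

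None of the fatty acid genes separated Foxo1-deficient from LZ libraries. Fasn had 14.5, 10.2 and 8.30 FPKM in Foxo1-deficient libraries, against 13.5, 14.5 and 18.2 FPKM in LZ libraries (log2 change -0.47, SE 0.26, adjusted p = 0.456). Fads2 had 2.84, 1.27 and 4.14 FPKM in Foxo1-deficient libraries, against 5.12, 4.21 and 2.52 FPKM in LZ libraries (log2 change -0.44, adjusted p = 0.668). Elovl5, an elongase of polyunsaturated chains, had 10.4, 5.97 and 5.80 FPKM in Foxo1-deficient libraries, against 11.2, 11.4 and 6.67 FPKM in LZ libraries (log2 change -0.37, adjusted p = 0.66). Scd1 had a log2 change of 0.16 against LZ (95% interval -0.16 to 0.48, adjusted p = 0.687).

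The third comparison sets Foxo1-deficient cells against DZ cells. It shares its Foxo1-deficient libraries with the second and its DZ libraries with the first. Scd1 rose, and the sterol enzymes went both ways. Of the 17 sterol enzymes 12 had a higher and 5 a lower mean in Foxo1-deficient cells, with a median of 0.17, beside 0.12 for all genes tested, of which 38.8% had a change below 0. The fatty acid genes had a median of 0.10, with 7 higher and 5 lower, and the regulation and transport genes 0.27, with 5 of 5 higher. Called higher was 1 of 12 fatty acid genes, where 2.1% of all genes were called higher and 0.75% lower (2.85% in all). Of the sterol enzymes 0 of 17 were called, with 0 at an unadjusted p under 0.05 (11.5% of all genes higher, 4.78% lower) and 0 with limma-voom, and likewise 0, 0 and 0 of the 5 regulation and transport genes. The share of called genes that were higher in Foxo1-deficient cells was 73.7%, and it was 44.6% after centring each library on its median and 60.8% after quantile normalization. Without DZ replicate 3 the sterol median was 0.08, the fatty acid median 0.02 and the regulation and transport median 0.14. Without Foxo1-deficient replicate 3 these medians were 0.15, 0.10 and 0.31. Without Foxo1-deficient replicate 1 they were 0.28, -0.02 and 0.15, without Foxo1-deficient replicate 2 they were 0.22, 0.21 and 0.23, and without DZ replicate 1 they were 0.28, 0.10 and 0.41.

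Scd1 had 83.3, 70.0 and 78.5 FPKM in Foxo1-deficient libraries, against 45.0, 42.8 and 45.9 FPKM in DZ libraries. All 3 Foxo1-deficient libraries lay above all 3 DZ libraries (log2 change 0.78, SE 0.15, 95% interval 0.46 to 1.10, adjusted p = 0.0171 by limma). The gene lies on mm9 at chr19:44468940-44482199. The call was lost without DZ replicate 1 (adjusted p = 0.0644), DZ replicate 2 (0.0759), Foxo1-deficient replicate 1 (0.0712) or Foxo1-deficient replicate 3 (0.0609) and held without DZ replicate 3, with log2 changes of 0.72 to 0.85 over all libraries left out in turn. Myeloid and erythroid markers were higher in the same Foxo1-deficient libraries, with 8 of 9 and 4 of 4 tested markers called, and their part in this result was not tested.

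Scd2, the paralog of Scd1, had 23, 16.4 and 15.8 FPKM in Foxo1-deficient libraries, 18, 18 and 15.9 FPKM in DZ libraries and 19.2, 24.3 and 17.8 FPKM in LZ libraries. Its change between Foxo1-deficient and DZ cells was 0.07 (95% interval -0.39 to 0.52, adjusted p = 0.907). The ratio of Scd1 to Scd2 FPKM, computed after the values were seen, was 3.62, 4.28 and 4.97 in Foxo1-deficient libraries, 2.5, 2.38 and 2.9 in DZ libraries and 3.49, 3.25 and 3.5 in LZ libraries. The 3 groups did not overlap in this ratio, and no test was made. Of the 50-base words of the longest protein-coding Scd1 transcript in GENCODE, 4.7% also occur in other genes, and of those of Scd2 4.0%. On mm9 Scd2 overlaps the entry Mir5114, listed at up to 9810 FPKM, and its part in the Scd2 values was not tested.

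In 4 sterol enzymes the Foxo1-deficient and DZ libraries did not overlap, in either direction. Sqle and Mvd were higher in Foxo1-deficient libraries (log2 changes of 0.34 and 0.52, adjusted p = 0.353 and 0.418), and Acat2 and Hsd17b7 lower (-0.38 and -0.57, adjusted p = 0.407 and 0.434). No overlap, higher, held for 17.3% of all genes and, lower, for 5.78%. Mvd had 6.19, 4.45 and 6.01 FPKM in Foxo1-deficient libraries, against 4.31, 4.42 and 2.23 FPKM in DZ libraries. Hsd17b7 had 2.24, 2.85 and 1.44 FPKM in Foxo1-deficient libraries, against 4.43, 3.48 and 3.14 FPKM in DZ libraries. Dhcr7 had 5.21, 7.11 and 12.1 FPKM in Foxo1-deficient libraries, against 2.67, 4.91 and 6.47 FPKM in DZ libraries, which overlap (log2 change 0.68, SE 0.34, adjusted p = 0.361). Sc4mol had 22.8, 12.3 and 25.9 FPKM in Foxo1-deficient libraries, a wide spread that crossed the DZ range (log2 change 0.52, adjusted p = 0.428). Insig1 had 11.4, 20 and 20.1 FPKM in Foxo1-deficient libraries, against 14.7, 12.7 and 9.22 FPKM in DZ libraries (log2 change 0.44, adjusted p = 0.518). Elovl1 had 14.1, 17.4 and 14.8 FPKM in Foxo1-deficient libraries, against 13.3, 14.2 and 9.66 FPKM in DZ libraries (log2 change 0.31, adjusted p = 0.607). Fads2 had 2.84, 1.27 and 4.14 FPKM in Foxo1-deficient libraries, against 6.16, 2.76 and 3.66 FPKM in DZ libraries, which overlap (log2 change -0.49, adjusted p = 0.573).

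**Figure D4:**
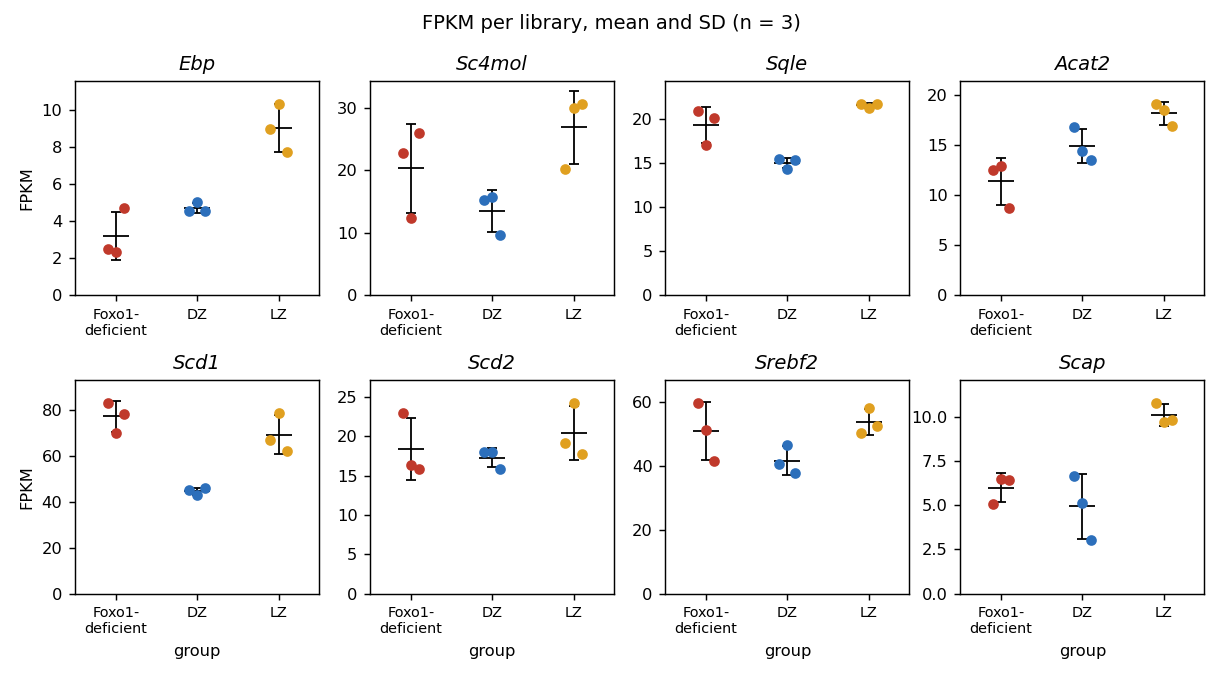
FPKM of Ebp, Sc4mol, Sqle, Acat2, Scd1, Scd2, Srebf2 and Scap in each library (points) with the group mean (horizontal line) and SD (error bar), Foxo1-deficient, DZ and LZ from left to right, each panel with its own y axis from 0. Ebp is at 2.34 to 4.68 FPKM in Foxo1-deficient libraries, 4.51 to 4.99 FPKM in DZ and 7.73 to 10.3 FPKM in LZ, while Scd1 is at 70.0 to 83.3 FPKM in Foxo1-deficient, 42.8 to 45.9 FPKM in DZ and 62.2 to 78.7 FPKM in LZ libraries.

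The branches can be set side by side through their medians. The sterol median minus the fatty acid median was -0.36 for DZ minus LZ, -0.19 for Foxo1-deficient minus LZ and 0.07 for Foxo1-deficient minus DZ. Over the alternatives tried it ran from -0.39 to -0.27, from -0.28 to -0.07 and from 0.01 to 0.31 in these 3 comparisons. The difference between branches was not tested, and the comparisons share libraries.

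Some levels are less certain than others. Of the 50-base words of the longest protein-coding transcript of each gene in GENCODE, 86.4% in Fdps, 52.6% in Acaca, 45.9% in Acat2, 21.3% in Idi1 and 10.9% in Fdft1 also occur in other genes or pseudogenes. On mm9 Elovl1 overlaps the entry of Cdc20, a cell division gene, and Fdft1, Acsl3, Lss, Srebf1, Tm7sf2, Scd2 and Srebf2 each overlap another entry. No use of strand is stated, so reads of overlapping entries cannot be told apart.

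Genes outside the 36 were followed in lists of related routes. In cholesterol uptake, storage and efflux, 14 of 17 genes were tested, with median changes of -0.35 for DZ minus LZ, 0.25 for Foxo1-deficient minus LZ and 0.61 for Foxo1-deficient minus DZ. In the last comparison 1 of the 14, Abca1, was called higher by limma, where 2.1% of all genes were. At an unadjusted p under 0.05, 6 of the 14 were higher there and 0 lower (11.5% and 4.78% of all genes). For DZ minus LZ 3 were lower and 0 higher (11.7% and 3.72%). For Foxo1-deficient minus LZ 2 were higher and 0 lower (5.79% and 7.64%). Abca1, which moves cholesterol out of the cell, had 12.5, 11.0 and 5.98 FPKM in Foxo1-deficient libraries, 3.31, 3.47 and 2.01 FPKM in DZ libraries and 4.66, 5.72 and 5.55 FPKM in LZ libraries. Its log2 change against DZ was 1.43 (SE 0.31, adjusted p = 0.032 by limma), and every Foxo1-deficient library lay above every DZ library. The call was lost without any DZ replicate or without Foxo1-deficient replicate 1 or 2 (adjusted p 0.0755 to 0.12). Soat1, which esterifies cholesterol, had 8.41, 8.45 and 13 FPKM in Foxo1-deficient libraries, against 4.09, 3.90 and 5.30 FPKM in DZ libraries (log2 change 1.00, adjusted p = 0.0632, and 0.0205 with limma-voom). The summed myeloid markers were also higher, at 171 to 324 FPKM in Foxo1-deficient against 5.25 to 8.3 FPKM in DZ libraries. Their part in the values of these genes was not tested.

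Slc25a1, the carrier that brings citrate out of mitochondria for acetyl-CoA, had 5.47, 9.68 and 10.4 FPKM in Foxo1-deficient libraries, 12.2, 6.16 and 7.65 FPKM in DZ libraries and 11.7, 24.3 and 16.4 FPKM in LZ libraries. Its log2 change was -0.94 for Foxo1-deficient minus LZ (adjusted p = 0.234) and -0.92 for DZ minus LZ (adjusted p = 0.218). The list it belongs to, other fatty acid synthesis genes, had 11 of 25 tested and 0 called in any comparison by limma. At an unadjusted p under 0.05, 1 of the 11 was lower in the first comparison (11.7% of all genes). In the second 2 were lower (7.64% of all genes), and in the third 1 was higher (11.5% of all genes). The medians of this list were -0.21 for DZ minus LZ, -0.14 for Foxo1-deficient minus LZ and 0.10 for Foxo1-deficient minus DZ. Those of the 12 tested fatty acid genes were -0.16, -0.16 and 0.10. Tecr, which takes the last step of each elongation cycle, had 50.8, 35.6 and 45.1 FPKM in Foxo1-deficient libraries, 35.5, 26.5 and 24.9 FPKM in DZ libraries and 45.6, 44.1 and 28.5 FPKM in LZ libraries. All Foxo1-deficient libraries lay above all DZ libraries (log2 change 0.58, adjusted p = 0.229).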

How the data were processed

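RNA of 9 libraries was measured. Per the labels' protocols, NEBNext Ultra libraries were made of TRIzol-extracted RNA. TopHat2 2.0.8, Cufflinks 2.1.1 and the build mm9 are named, per the submitters' processing notes. The authors deposited a Cufflinks table for each library, which lists FPKM and its confidence bounds by gene, per the file headers. The use of strand is not stated. Of 23700 entries, 716 of 250 repeated symbols and 7 genes with a failed estimate were left out. The remaining 10004 genes with FPKM of at least 1 in at least 3 libraries were tested with limma 3.58.1 (R 4.3.3), with an intensity trend, on log2(FPKM + 1). This scale understates the change of low genes. All 9 libraries entered 1 fit, and p-values are two-sided, with Benjamini-Hochberg adjustment over all genes. Depth was estimated from the confidence bounds as implied fragments. In what is called limma-voom here, voom gave weights from these fragments. The values fitted were still log2(FPKM + 1), with the weights in place of the intensity trend. Mean and SD are over 3 libraries. The members and lists were chosen with earlier results of these data known. Values in every library are given for called members and, per class and comparison, the 3 with the smallest p. Of related lists, called genes and the 2 smallest p a list are given. Some genes of the marker and related lists are not reported here. The model was tested on simulated data. Alternatives are under the closing section.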

Additional observations from a re-analysis of the deposited data

How the results depend on the processing

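The sterol enzyme median kept its sign in the first 2 comparisons under every alternative. For DZ minus LZ it was -0.41 with a pseudocount of 5, -0.33 with median centring, -0.39 with quantile normalization, and -0.57 to -0.47 leaving out a library. The fatty acid median was 0.02 with median centring and -0.28 to -0.13 leaving out a library. With limma-voom 1 fatty acid gene (Scd1) and 1 regulation gene (Scap) were called. All genes called, 194 in the report's test, were 122 with only the compared groups, 109 with no filter, 323 with limma-voom and 73 to 215 leaving out a library.

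For Foxo1-deficient minus LZ the sterol median was -0.24 with a pseudocount of 5 and -0.38 to -0.21 leaving out a library, and the fatty acid median -0.22 to 0.00 leaving out a library. Sterol enzymes called, 1 in the report's test, were 0 with a pseudocount of 0.1, no filter, a minimum of 5 FPKM, only the compared groups, the replicate block or limma-voom, and 0 to 1 leaving out a library. Ebp had an adjusted p of 0.0631, 0.0696, 0.0575, 0.13, 0.0842 and 0.0543 there. All genes called, 156, were 99 with a pseudocount of 0.1, 96 with a minimum of 5 FPKM, 58 with only the compared groups and 41 to 141 leaving out a library. Srebf2 changed sign without Foxo1-deficient replicate 3, to 0.05 against -0.09.

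For Foxo1-deficient minus DZ the sterol median was 0.00 with median centring, 0.03 with quantile normalization and 0.08 to 0.28 leaving out a library. The fatty acid median was -0.08 with median centring and -0.02 to 0.21 leaving out a library. Leaving out a library, fatty acid genes called were 0 to 1 and all genes called, 285 in the report's test, were 119 to 245. The causes were not tested. Abca1 in this comparison had an adjusted p of 0.0643 with no filter and 0.0719 with only the compared groups.

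Whether replicate numbers pair the samples is not known. With group means taken out, same-number libraries of different groups correlated at -0.0674 to 0.0752. Those with different numbers correlated at -0.112 to 0.0503. With the replicate block all genes called were 161, 137 and 221 in the 3 comparisons. Depth, an implied 1780000 to 2480000 fragments a library, limits genes near 1 FPKM.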

Other observations

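Fatty acid oxidation genes, which break down what the synthesis genes make, had 18 of 20 tested and 0 called in any comparison by limma. At an unadjusted p under 0.05 there were 0 for DZ minus LZ. There were 2 higher and 3 lower for Foxo1-deficient minus LZ (5.79% and 7.64% of all genes), and 1 higher and 2 lower for Foxo1-deficient minus DZ (11.5% and 4.78% of all genes). Their median changes were 0.03, 0.01 and -0.17. Eci1, an isomerase used for unsaturated chains, had 5.53, 4.83 and 1.90 FPKM in Foxo1-deficient libraries, 10.8, 8.89 and 8.55 FPKM in DZ libraries and 6.29, 11.4 and 9.60 FPKM in LZ libraries. Its log2 change against DZ was -1.11 (adjusted p = 0.122, and 0.0474 with median centring and 0.0482 with quantile normalization). Cpt1b, a carnitine palmitoyltransferase that lets fatty acids into mitochondria, was low, at 0.00174, 0.824 and 0.000218 FPKM in Foxo1-deficient libraries, 1.37, 0.396 and 0.107 FPKM in DZ libraries and 2.8, 0.837 and 2.92 FPKM in LZ libraries. Every Foxo1-deficient library lay below every LZ library (log2 change -1.30, adjusted p = 0.209).

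The other isoprenoid genes, which use the products of the mevalonate route outside sterols, had 9 of 10 tested and 0 called by limma. At an unadjusted p under 0.05 there were 1 higher and 1 lower for DZ minus LZ (3.72% and 11.7% of all genes), 2 higher and 1 lower for Foxo1-deficient minus LZ (5.79% and 7.64%) and 0 for Foxo1-deficient minus DZ. Their medians were -0.07 for DZ minus LZ, -0.15 for Foxo1-deficient minus LZ and -0.07 for Foxo1-deficient minus DZ. Fnta, the shared alpha subunit of the protein prenyltransferases, had 19.9, 18.6 and 18.5 FPKM in Foxo1-deficient libraries, 18.7, 24 and 19.0 FPKM in DZ libraries and 10.9, 16.6 and 8.02 FPKM in LZ libraries. All DZ libraries lay above all LZ libraries (log2 change 0.79, adjusted p = 0.152, and 0.0444 with median centring). Ggps1, which makes geranylgeranyl diphosphate, had 11.9, 8.24 and 9.94 FPKM in Foxo1-deficient libraries, 5.40, 5.94 and 6.00 FPKM in DZ libraries and 2.81, 9.93 and 3.45 FPKM in LZ libraries (log2 change 0.94 for Foxo1-deficient minus LZ, adjusted p = 0.279).

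The other genes of SREBP regulation had 7 of 9 tested and 0 called by limma, with 0 at an unadjusted p under 0.05 in each of the 3 comparisons. Their medians were -0.01 for DZ minus LZ, 0.20 for Foxo1-deficient minus LZ and 0.28 for Foxo1-deficient minus DZ. Rnf139, a ubiquitin ligase of the endoplasmic reticulum membrane, had 7.15, 14.6 and 9.64 FPKM in Foxo1-deficient libraries, 7.56, 5.67 and 5.73 FPKM in DZ libraries and 8.33, 11.4 and 8.32 FPKM in LZ libraries (log2 change 0.61 for Foxo1-deficient minus DZ, adjusted p = 0.312). Pgrmc1, a haem-binding membrane protein, had 5.42, 11.3 and 14.8 FPKM in Foxo1-deficient libraries, 10.3, 5.46 and 7.25 FPKM in DZ libraries and 7.26, 6.46 and 2.49 FPKM in LZ libraries (log2 change 0.84 for Foxo1-deficient minus LZ, adjusted p = 0.41).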
